A study of Mus musculus with 6 samples.

Results

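IGF and insulin signaling was followed through 10 genes in the ganglion cell layer of the mouse retina, 6 hrs after the optic nerve had been crushed. The genes are the ligand Igf1, the receptors Igf1r and Insr, the adaptors Irs1 and Irs2, and the binding proteins Igfbp2, Igfbp3, Igfbp4, Igfbp5 and Igfbp7. They were taken by name, and every probe set of the array that carries one of these symbols alone was used, which gave 28 of 45101 probe sets and 10 of 18193 named genes. Of these, 25 had a mean intensity of at least 40 over all arrays and were tested, and the other 3 were too dim. The question was whether the transcripts of this survival pathway differ between an injured and an uninjured eye at this early time.

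The arrays came from male C57BL/6J mice. In 3 eyes the optic nerve was crushed with forceps for 10 sec behind the globe, and the 3 control eyes were the uninjured eyes of the other side, so that the groups share strain, sex and animals. The ganglion cell layer was cut out by laser capture, its RNA was amplified over repeated rounds, and 1 array was hybridized per eye. Crushed and control eyes with the same number were treated as a pair, although the labels do not say that they came from the same animal. A control eye from an injured animal is not an eye from an untouched animal, and the captured layer also holds displaced amacrine cells, astrocytes, microglia, vessels and Muller cell processes. In such a sample, fewer cells of a type and less RNA per cell cannot be told apart.

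Insulin-like growth factor 1 binds the IGF-1 receptor, a tyrosine kinase that is closely related to the insulin receptor. Both receptors phosphorylate insulin receptor substrates, which recruit phosphoinositide 3-kinase and so activate Akt, a kinase that favors survival of neurons, including retinal ganglion cells (RGCs). IGF binding proteins hold the ligand outside the cell, where they prolong its life or keep it from the receptor, and proteases release it again.

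The captured layer carried RGC transcripts. Of 12 RGC markers 11 were found on the array and 11 had a mean of at least 40, with 0 of them past an unadjusted p under 0.05 from limma. Arrays had median intensities between 131.2 and 153.9. Crush eye 2 was unlike the others, since 1331 tested probe sets were more than 1 log2 unit below every other array there (4 to 57 elsewhere), and in crush eye 3 there were 255 above every other array by that much (2 to 27 elsewhere). Values of the member genes are therefore given by eye. Of the 25 tested member probe sets 8 changed the sign of their log2 fold change when 1 of the 3 pairs was left out, 5 of them without pair 2. The p values from limma measure the difference against its spread among these 3 pairs, moderated toward the spread of all tested probe sets. Adjusted p values were taken over all 33169 tested probe sets.

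None of the IGF and insulin signaling genes passed the test for a difference after crush. Of the 25 tested probe sets 0 had an unadjusted p under 0.05 from limma, where 7.68% of all tested probe sets did, and 0 had an adjusted p under 0.05, as for all probe sets (0%). The lowest adjusted p among the members was 0.65. The study's criteria combine an unadjusted p under 0.05 with a fold above 1.2 and an intensity difference above 80. With the p from limma they were met by 0 member probe sets and by 3.12% of all tested ones, and with the p from the methods' t-test, a paired test on linear intensities, by 0 and 0.968%. With each gene read from its brightest probe set, 0 of 9 genes passed an unadjusted p under 0.05 from limma, against 5.03% of all named genes. With the methods' t-test alone 1 member probe set passed an unadjusted p under 0.05, that of Igfbp4 described below.

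In size, the differences of the members were like those over all tested probe sets. Of the 25 probe sets 11 were above 0 and 14 below, with a median log2 fold change of -0.06, against -0.01 over all tested probe sets. The median size of the log2 difference, whatever its sign, was 0.16 in the members and 0.16 in all. For all 25 probe sets the 95% interval from limma lay within 1 of 0 on the log2 scale, and this held for 86.2% of all tested probe sets. The bounds farthest from 0 were -0.69 for the brightest probe set of Igf1 and 0.94 for a probe set of Igfbp3. These intervals are not adjusted for the number of probe sets. A p that misses the threshold does not show that the 2 groups were alike.

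**Figure D1:**
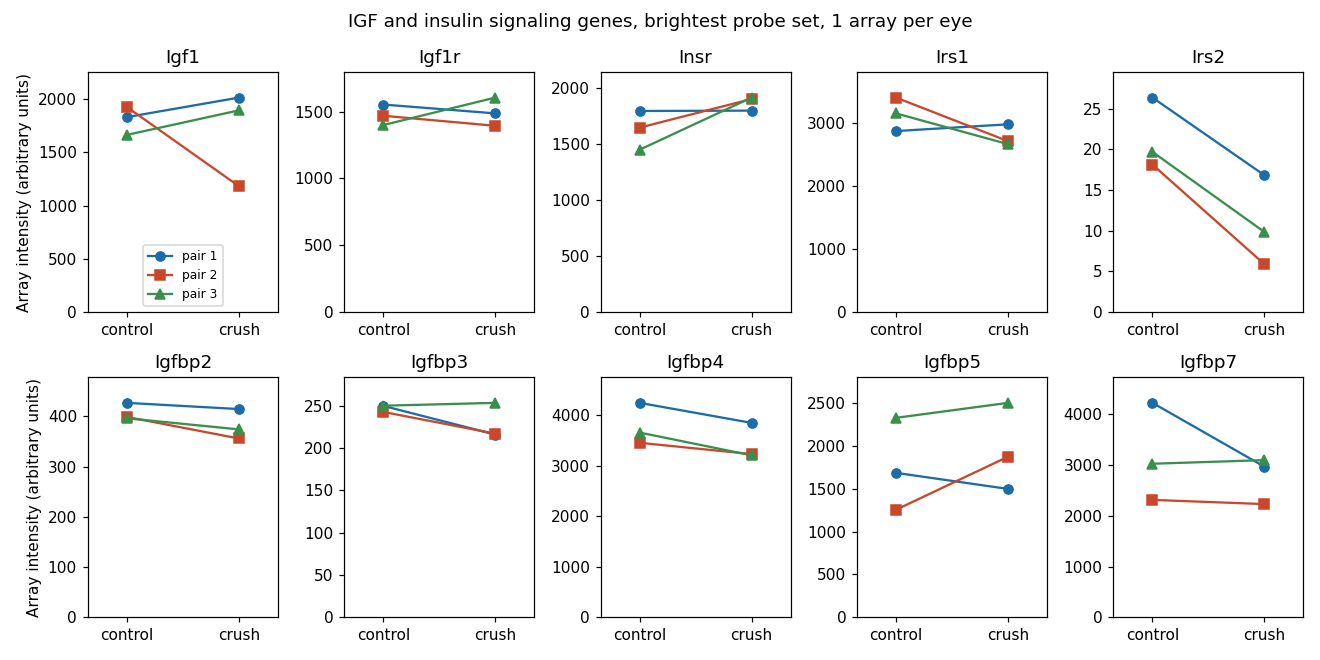
Array intensity (arbitrary units, linear axis from 0) of the brightest probe set of each of the 10 genes in control and crushed eyes. Each line joins the eyes of a pair, and each point is 1 array. In all 3 pairs Igfbp2 and Igfbp4 are lower in the crushed eye, Igf1 is lower only in pair 2, and Irs2 lies below 30 on every array.

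Igf1, the ligand, is read by 4 probe sets, and they did not agree on a direction. On the brightest the intensity was 1831, 1926 and 1664 in control eyes 1 to 3, and 2014, 1183 and 1894 in crushed eyes 1 to 3. Crush eye 2 was thus far below the 5 other eyes, while crushed eyes 1 and 3 were above their controls. This gave a log2 value of -0.13 for crush minus control (standard error 0.22; limma adjusted p = 0.88), and without pair 2 it was 0.16. On the next brightest probe set the control eyes had 1889, 1885 and 1554 and the crushed eyes 1720, 1466 and 1541, lower in all 3 pairs, with a log2 fold change of -0.17 (adjusted p = 0.746 from limma). A dimmer probe set was higher in all 3 pairs, with a log2 fold change of 0.15, and the dimmest was at -0.19, where crush eye 2 was again the lowest array and the value without pair 2 was 0.03. Averaged over its probe sets Igf1 was at -0.08 on the log2 scale, with a 95% interval from -0.47 to 0.31.

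Igf1r, which encodes the receptor for IGF-1, was the most even of the bright members between the groups. Its brightest probe set had intensities of 1552, 1468 and 1399 in control eyes and of 1486, 1393 and 1604 in crushed eyes, with ranges that overlapped. The group means were 1473 ± 76.7 in control and 1495 ± 106 after crush (SD, n = 3 eyes each). This gave a log2 fold change of 0.02 (adjusted p = 0.976 from limma) and a 95% interval for the ratio of crush to control from 0.788 to 1.30. Only pair 3 was higher in the crushed eye, and without that pair the log2 fold change was -0.07. Of the 3 other tested probe sets of Igf1r, 2 were higher in the crushed eye of all 3 pairs, with log2 fold changes of 0.16 and 0.19, and the other had -0.06. A probe set at a mean of 39.5 fell just under the limit for testing. It had 41.3, 48.2 and 58.4 in control eyes and 37.5, 10.5 and 41.0 in crushed eyes, with its lowest value again on the array of crush eye 2.

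Insr, the insulin receptor, was the 1 gene of the 9 tested whose groups did not overlap on its brightest probe set. Control eyes were at 1796, 1648 and 1451 and crushed eyes at 1800, 1903 and 1916, so that each crushed eye was above each control eye, although in pair 1 the eyes were nearly level. Insr thus differed by 0.20 on the log2 scale (standard error 0.15; limma adjusted p = 0.713), and the ratio had a 95% interval from 0.885 to 1.50. Without pair 3 the log2 value was 0.11. A dim probe set was lower in all 3 pairs, with 47.1, 46.9 and 49.8 in control eyes and 38.7, 36.3 and 47.6 in crushed eyes and a log2 fold change of -0.24 (adjusted p = 0.676 from limma). With these probe sets averaged Insr stood at -0.02. Another probe set, at a mean of 36.4, was not tested.

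Of the 25 tested probe sets 2 had groups that did not overlap, against 12.5% of all tested probe sets. They were the brightest of Insr and a dimmer one of Igfbp7. The same direction in all 3 pairs was seen for 11 of 25, against 31.9% of all tested probe sets. Of these 11, several belong to the same gene and share its transcript, so they are not separate cases.

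Irs1, an adaptor that carries the signal from both receptors, is read by 1 probe set. It was at 2876, 3406 and 3155 in control eyes and at 2982, 2715 and 2668 in crushed eyes. Crushed eyes 2 and 3 were below every control eye and crush eye 1 was slightly above its own control. The mean difference was -0.17 on the log2 scale (standard error 0.15; limma adjusted p = 0.749), with a 95% interval for the ratio from 0.682 to 1.16. It was -0.28 without pair 1 and -0.09 without pair 2. Irs2, the other adaptor, was too dim to be measured. Its 1 probe set had 26.4, 18.1 and 19.7 in control eyes and 16.8, 5.90 and 9.86 in crushed eyes, near or below the value of 16 to which low intensities were raised. Each crushed eye was below each control eye, but at this brightness the values are no measure of the transcript. Tested without the limit on brightness, it stood at -0.38 on the log2 scale (limma adjusted p = 0.659).

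**Figure D2:**
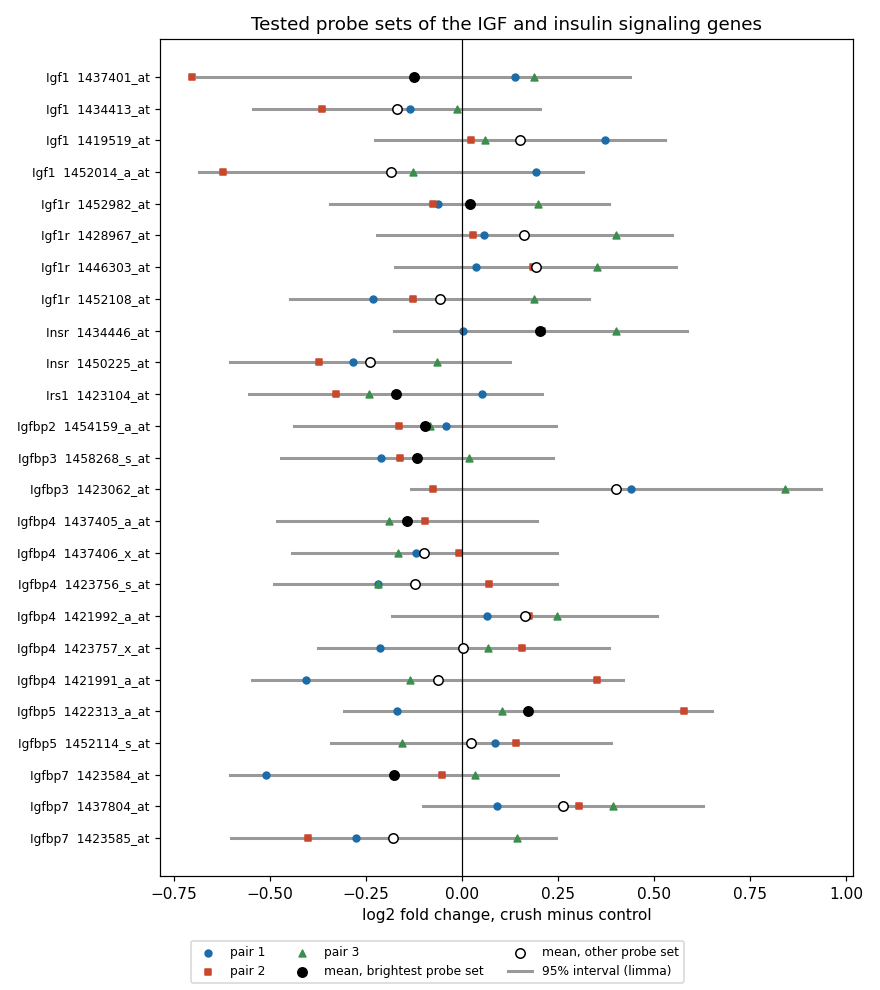
The log2 fold change of the 25 tested probe sets (horizontal axis, crush minus control), with the 95% interval from limma as a gray bar and the differences of the 3 pairs as colored symbols. Every interval crosses 0 and stays between -1 and 1. The probe sets of Igf1, Igf1r, Insr, Igfbp3, Igfbp4 and Igfbp7 lie on both sides of 0.

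Among the binding proteins, Igfbp4, which mostly keeps IGF from its receptor, had lower values after crush in all 3 pairs on its 2 brightest probe sets, without passing the test. The brightest had 4246, 3456 and 3658 in control eyes and 3850, 3232 and 3207 in crushed eyes. The log2 differences of the pairs ran from -0.19 to -0.10. The SD of the log2 values among control eyes was 0.15, but the paired tests do not use this spread. The mean of the pair differences was -0.14 (standard error 0.13; limma adjusted p = 0.764), a ratio of means of 0.906. This probe set passed an unadjusted p under 0.05 with the methods' t-test (adjusted p = 0.818) and with limma on all probe sets without the limit on brightness (adjusted p = 0.597), but not under the main settings. The next brightest, at -0.10, was also lower in all 3 pairs. It is listed under the same sequence record as the brightest, so the 2 are not separate readings. It also carries a suffix by which the maker marks probes that may bind related sequences. The next, at -0.12, was higher in pair 2. The 3 dimmest probe sets of Igfbp4 had log2 fold changes of 0.16, 0.00 and -0.06, so the 6 did not share a direction.

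Igfbp2, a binding protein of glia and other cells of the nervous system, varied little. It was at 427, 399 and 396 in control eyes and at 414, 356 and 374 in crushed eyes. All 3 pairs had the lower value after crush, with log2 differences from -0.16 to -0.04, and the ranges overlapped. Their mean was -0.10 (limma adjusted p = 0.845), and the ratio had a 95% interval from 0.739 to 1.18. The pattern of Igfbp2 over the 6 arrays was most like that of Igfbp4, with a Pearson correlation of 0.919 of their log2 intensities. This is a description over arrays that both genes share, and no other pair of members came as close.

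Igfbp3, the main carrier of IGF in blood, gave opposite values on its 2 probe sets. The brighter was nearly constant in control eyes, at 250, 243 and 250, and was at 216, 217 and 253 in crushed eyes. The mean log2 difference was -0.12 (limma adjusted p = 0.816). The dimmer had 122, 106 and 105 in control eyes and 165, 101 and 189 in crushed eyes, so crushed eyes 1 and 3 were above every control eye and crush eye 2 was below. This was the largest log2 fold change of any tested member, at 0.40 (standard error 0.21; limma adjusted p = 0.65), and had the lowest p. Without pair 2 it was 0.64 and had an unadjusted p under 0.05 (adjusted p = 0.841 from limma). It rests in that case on 2 pairs, and the brighter probe set of the gene did not follow, with log2 differences of -0.21 and 0.02 in pairs 1 and 3.

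Igfbp5, which binds to the extracellular matrix, differed more among control eyes than between groups. Its brightest probe set had 1684, 1254 and 2325 in control eyes, a 1.85-fold range, and only 6.04% of tested probe sets had a larger spread of log2 values among the controls. Crushed eyes were at 1497, 1871 and 2499. The differences within pairs were -0.17, 0.58 and 0.10 on the log2 scale and their mean was 0.17 (standard error 0.19; limma adjusted p = 0.801). Without pair 2 it was -0.03. The other probe set was steady, at 740, 645 and 752 in control eyes and 786, 710 and 675 in crushed eyes, with a log2 fold change of 0.02. The wide spread among eyes was thus seen on 1 of 2 probe sets of the gene.

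Igfbp7, a secreted protein of vessels that binds IGF only weakly, also varied widely among control eyes on 1 of its 3 probe sets. The brightest probe set was at 4227, 2315 and 3028 in control eyes, a 1.83-fold range, and at 2970, 2233 and 3099 in crushed eyes. The mean log2 difference of -0.18 (standard error 0.17; limma adjusted p = 0.769) came mostly from pair 1, with -0.51, while pairs 2 and 3 had -0.05 and 0.03. Without pair 1 it was -0.01. A dimmer probe set had 203, 214 and 181 in control eyes and 216, 264 and 238 in crushed eyes. It was higher in all 3 pairs with no overlap, and its log2 fold change was 0.26 (adjusted p = 0.658 from limma). The remaining probe set had -0.18. The control eyes had a 1.18-fold range on the former and a 1.15-fold range on the latter. Endothelial markers, of which 10 of 10 were found and 8 were tested, had a summed intensity of 9773 to 11216 in control and of 9532 to 11195 in crushed eyes, with Pecam1 and Tie1 below a mean of 40. Markers of pericytes and smooth muscle summed to 12369 to 13105 and 12143 to 13438, with 9 of 9 tested. The summed levels of both lists, which weigh bright markers most, overlapped between the groups.

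By pair, the members were divided in direction. The 25 probe sets had a median log2 difference of -0.06 in pair 1, where 14 were lower, of -0.05 in pair 2, again with 14 lower, and of 0.06 in pair 3, with 10 lower. The medians over all tested probe sets were 0.02, -0.08 and 0.07. Differences over 0.5 on the log2 scale were seen for 1, 3 and 1 of the 25 in pairs 1 to 3, against 7.02%, 30.2% and 19.2% of all tested probe sets. The lowest of the 6 arrays was that of crush eye 2 for 9 of the 25, and for 34.6% of all tested probe sets.

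The other genes of the pathway were read in the same way. Of 53 further genes, 48 were found and 44 were bright enough to test on their brightest probe set, with 15 above 0, 29 below and a median log2 fold change of -0.05. The others were not analysed here. Over all named genes tested on their brightest probe set, 45.7% were above 0, with a median log2 fold change of -0.02. Among the 44, an unadjusted p under 0.05 was reached by 1 gene that was higher and 3 that were lower, and an adjusted p under 0.05 by 0 (limma). The share among all named genes was 5.03%. Reading all 83 tested probe sets of these 44 genes gave another balance, with 40 above 0 and 43 below. Of the 23 genes with more than 1 tested probe set, 10 had probe sets on both sides of 0, so the direction of a gene below is that of its brightest probe set alone.

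Htra1, a secreted protease that cuts IGF binding proteins among other substrates, was lower by this measure. It was at 4539, 4639 and 3315 in control eyes and at 3173, 3059 and 2766 in crushed eyes, where every crushed eye was below every control eye. The group means were 4165 ± 737 and 2999 ± 210 (SD, n = 3 eyes each). Htra1 had a difference of -0.46 on the log2 scale (standard error 0.15; limma adjusted p = 0.642). Its other probe set had -0.29 and was level in pair 3. Without pair 1 or pair 2 the first had -0.43 and -0.39, neither with an unadjusted p under 0.05. Muller cell markers, 10 of 10 tested, had 9 below 0 and 1 above, with summed intensities of 46692 to 54076 in control and 45549 to 47665 in crushed eyes, and their part in the value of Htra1 was not tested.

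Pik3r1, a regulatory subunit of phosphoinositide 3-kinase, was higher, with 873, 864 and 686 in control eyes and 971, 1183 and 1016 in crushed eyes. The groups did not overlap, and the log2 difference was 0.39 (standard error 0.15; limma adjusted p = 0.642). It lost its unadjusted p under 0.05 without any 1 of the 3 pairs, with values from 0.30 to 0.51, and after quantile normalization. Inppl1 (SHIP2), a lipid phosphatase that counters this kinase, was at 158, 131 and 110 in control and 113, 89.8 and 98.1 in crushed eyes, with a log2 fold change of -0.40 (adjusted p = 0.642 from limma). Without pair 1 or pair 2 it was -0.36 and -0.32, with no unadjusted p under 0.05. Sh2b2, an adaptor of the insulin receptor, had -0.43 (adjusted p = 0.642 from limma) at intensities of 39.6 to 58.3, near the limit for testing, and lost its unadjusted p under 0.05 without pair 1 or pair 3.

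**Figure D3:**
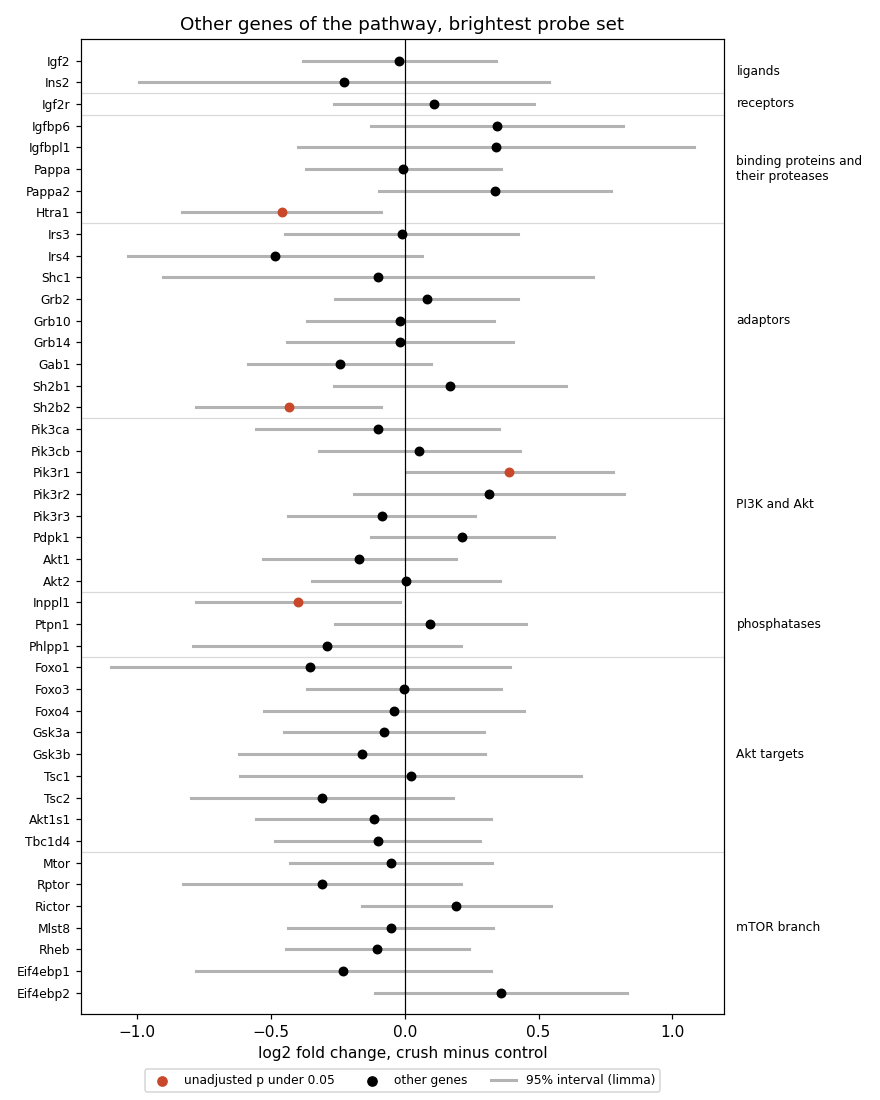
The log2 fold change of 44 further genes of the pathway on their brightest probe set (horizontal axis, crush minus control), grouped by role, with the 95% interval from limma. The 4 genes with an unadjusted p under 0.05 are in red, and of these Pik3r1 lies above 0 and Htra1, Sh2b2 and Inppl1 below.

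By role, the median log2 fold changes ran from -0.29 for the 3 phosphatases to 0.34 for binding proteins and their proteases. The ligand Igf2 had a log2 fold change of -0.02 and Ins2, which encodes insulin, had -0.23 with a 95% interval from -0.99 to 0.54. The only probe set of Ins2 carries the suffix for probes that may bind related sequences, so its value may not be that of Ins2 alone. Among the adaptors 2 of 9 were above 0, with 0.08 for Grb2 and -0.24 for Gab1. Among phosphoinositide 3-kinase and Akt genes 5 of 8 were above 0, among them Pdpk1, the kinase that activates Akt, with 0.22, while Akt1 had -0.17. Of the genes downstream of Akt 1 of 9 was above 0, with a median of -0.10, and 0 of 9 reached an unadjusted p under 0.05. Foxo1, a transcription factor that Akt keeps out of the nucleus, had -0.35 with a 95% interval from -1.10 to 0.39, and its pairs differed by -0.21, -1.15 and 0.31, lowest in pair 2. In the mTOR branch 2 of 7 were above 0, with -0.05 for Mtor itself and 0.36 for Eif4ebp2, a repressor of translation that mTOR inactivates. Dimmer probe sets had -0.42 for Mtor, with groups that did not overlap, and -0.34, -0.16 and 0.07 for Eif4ebp2. Of the proteases and binding proteins 3 of 5 were above 0, among them Pappa2, which cuts Igfbp5, with 0.34.

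Among the 39 tested probe sets of these genes that were not the brightest of their gene, 3 were higher and 1 was lower with an unadjusted p under 0.05 from limma, against 7.68% of all tested probe sets, and 0 passed an adjusted p. Gsk3b, a kinase that Akt inhibits, had -0.16 on its brightest probe set and values above 0 on its 5 others. One of these was at 278, 302 and 334 in control eyes and at 376, 426 and 473 in crushed eyes, with no overlap and a log2 fold change of 0.48 (standard error 0.13; limma adjusted p = 0.642). Pik3ca, a catalytic subunit of phosphoinositide 3-kinase, likewise had -0.10 on the brightest and values above 0 on its 5 others. The brighter of the 2 that passed was at 795, 745 and 685 in control eyes and at 947, 1133 and 913 in crushed eyes. The log2 difference was 0.42 for both, and their groups did not overlap (adjusted p = 0.642 from limma). These 2 are listed under the same sequence record and are not separate readings. A still brighter probe set of that record had 0.18, with groups that overlapped. Gab1, an adaptor, had -0.62 on a dimmer probe set (adjusted p = 0.642 from limma), with pair 2 at -1.24 and pairs 1 and 3 at -0.41 and -0.21. Probe sets of a gene can read different ends or forms of its transcripts, and which of them measured the gene was not tested.

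Other cells that could have entered the capture were checked through their markers. Microglia, a source of Igf1, had 9 of 9 markers found and 8 tested, with 5 above 0, 3 below and Itgam below a mean of 40. Their summed intensities were 3604 to 5079 in control and 3725 to 4588 in crushed eyes. Such sums weigh the brightest markers most, here Csf1r, with a log2 fold change of -0.20. Astrocyte markers, 6 of 7 found and tested, had 5 above 0 and 1 below, and summed to 7346 to 10428 and 9238 to 10699. Of 7 tested markers of the pigment epithelium and ciliary body 4 were higher with an unadjusted p under 0.05 in limma and 0 lower, with sums of 1352 to 1978 in control and 2736 to 8825 in crushed eyes. The 4 that were higher were Ttr, Rgr, Lrat and Dct, with log2 fold changes of 2.32, 1.30, 0.59 and 0.63. Tyrp1 had -0.40, Best1 -0.01 and Pmel 0.00, while Rpe65 and Mlana lay below a mean of 40. In crush eye 3 Ttr alone was at 7355. Of the rod markers 6 were tested and all 6 had a mean log2 fold change above 0, although their medians for pairs 1 to 3 were -0.21, 0.12 and 0.84, with sums of 25393 to 46181 in control and 35052 to 41658 in crushed eyes. Amacrine cell markers, 8 of 9 found and tested, had 1 above 0 and 7 below, with a median log2 fold change of -0.19. They summed to 30157 to 35589 in control and 28181 to 30568 in crushed eyes. Lens crystallins, with Crygd below a mean of 40, had 1 above 0 and 4 below, and summed to 1284 to 7751 and 769.9 to 6046. An unadjusted p under 0.05 from limma was reached by 2 astrocyte markers that were higher and by 1 marker each of microglia, Muller cells and lens that was lower, and by 0 of the rod, amacrine, endothelial and pericyte markers. The part of these cells in the values of the IGF genes was not tested.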

How the data were processed

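Arrays of 3 crushed and 3 control eyes were used. From Affymetrix Mu430 v2.0 arrays the authors computed signal intensities on a linear scale with the PM/MM model of dChip, normalized by an invariant set, and deposited them for each probe set. A floor of 16 was applied before log2 was taken. Where the mean intensity reached 40, a probe set was tested with limma 3.58.1 in R 4.3.3, with eye number as a block, as the study's methods use a paired test. Over the tested probe sets, the deviations of same-numbered eyes from their group means correlated at 0.154, 0.125 and 0.297 in pairs 1 to 3. Adjusted p values are Benjamini-Hochberg over all 33169. Probe sets were named through GEO's platform annotation, with symbols updated by gene identifier to RefSeq (GRCm38.p6) for 34754 of 34958 probe sets with a single symbol. Probe sets with several symbols (932) or no entry (9211) and 64 control probe sets were not used for named genes. A gene was represented by its brightest probe set, and all probe sets of the members are described. Apart from ranking the probe sets of a gene by brightness and summing markers by cell type, levels of different probe sets were not compared. Further genes of the pathway are named where they had an unadjusted p under 0.05, and otherwise as examples of their role or for another probe set, chosen with their values seen. The members, the lists and the alternatives were chosen with earlier results of these data known. The calculation was tested on simulated data. Precision is limited by the number of arrays. Alternatives covered the block, floor, brightness limit, scaling, prior, test, probe set rule, each pair left out and crushed array 2 or 3 left out.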

Additional observations from a re-analysis of the deposited data

How the results depend on the processing

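The count of 0 member probe sets with an unadjusted p under 0.05 became 1 without the limit on brightness and 1 with the methods' t-test (both a probe set of Igfbp4). Leaving out 1 pair, or crushed array 2 or 3, gave 0 to 1. The 1 was the dimmer probe set of Igfbp3 without pair 2 or crush eye 2, and one of Insr without crush eye 3. The count meeting the study's criteria was 0 under every alternative run. Over all probe sets 1 passed an adjusted p under 0.05 with an intensity trend and robust prior, 0 otherwise, and the 2546 with an unadjusted p under 0.05 became 1671 with the methods' t-test and 1525 to 2712 with a pair, or crushed array 2 or 3, left out. With no replicate block they were 2082. Pathway genes past it, 4 in the main analysis, were 2 with the trend and robust prior, 2 with the methods' t-test and 1 to 3 with a pair, or crushed array 2 or 3, left out. They were 6 without the limit on brightness, 5 with a floor of 64, 5 with the mean over a gene's probe sets and 3 or 4 under the other scalings, limits and floors. In the fit without the block 0 member probe sets and 3 pathway genes passed.

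Among the genes compared across settings, the log2 fold change changed sign for Igf1 (-0.126 in the main analysis), with -0.283 to 0.162 when a pair was left out and 0.115 without crush eye 2. Igf1r (0.0197) had -0.0691 to 0.0674 and -0.0325 without crush eye 3, and Igfbp5 (0.171) had -0.0328 to 0.341 and -0.0222 without crush eye 3. Averaged over their probe sets, which lie on both sides of 0, Igfbp3 had 0.142 and Insr -0.0178. With a floor of 64 Sh2b2 has no value, as all its intensities are below it. Of the other values compared, 162 kept their direction and their side of the threshold, 21 lost an unadjusted p under 0.05 (all for Htra1, Inppl1, Pik3r1 and Sh2b2) and 2 reached one (Igfbp4). The cause was not tested. Dim probe sets limit what could be seen of Irs2.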
